A study of Mus musculus with 12 samples.

Results

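The 10 genes described here belong to the Hedgehog signalling pathway: the ligand Desert hedgehog (Dhh), the receptor Ptch1, the co-receptors Boc, Cdon and Gas1, the transducer Smo, the transcription factors Gli1, Gli2 and Gli3, and the antagonist Hhip. They were taken as the rows of the deposited expression table whose gene symbol equals one of these names. All 10 names were found, among 34745 genes. Hippocampal neural stem cells from C57BL/6 mice had been sequenced in 12 RNA libraries of 3 groups, and every culture received medium with B27, EGF, bFGF and heparin. Early cultures were taken at passage 2 (P2, n = 4). Late cultures were taken at passage 10, after treatment from passage 2 onwards either with an equal volume of phosphate-buffered saline (P10 PBS, n = 4) or with small extracellular vesicles released by embryonic stem cells (P10 EV, n = 4). The labels do not say that replicates came from separate animals, so p-values measure only the spread between these samples. According to its title, the study asked whether the vesicles rejuvenate ageing hippocampal stem cells.

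Hedgehog ligands are secreted proteins that bind Ptch1 on the receiving cell. Free Ptch1 holds Smo inactive. When a ligand occupies Ptch1, Smo acts at the primary cilium, the Gli proteins are no longer cut into repressors, and their activator forms switch on target genes that include Gli1, Ptch1 and Hhip. In the hippocampus this pathway, driven mainly by Sonic hedgehog (Shh), is known for maintaining neural stem cells, while Dhh is best known from Schwann cells, endothelium and the testis.

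The upstream sequences of 3 genes are shown because the results turn on these genes: Dhh, the gene whose level changed, Ptch1, the receptor that is also a classical Gli target, and Smo, the transducer. RefSeq start-site windows (250 bases before the start and 50 after it, build GRCm38.p6) were found for 8 of the 10 genes, with none for Gli1 and Boc. Each line gives the 250 bases before the start, 5' to 3' along the gene's own strand. Capitals mark GC boxes (GGGCGG, or CCGCCC on the other strand), the short motif bound by Sp-family factors. The Dhh stretch is chr15:98898541-98898790 on the minus strand, the Ptch1 stretch is chr13:63565736-63565985 on the minus strand, and the Smo stretch is chr6:29735247-29735496 on the plus strand. The Ptch1 stretch precedes the RefSeq start used, which lies inside the deposited Ptch1 locus (chr13:63508328-63573598), so it is not the sequence before the outermost end of that gene.
Dhh: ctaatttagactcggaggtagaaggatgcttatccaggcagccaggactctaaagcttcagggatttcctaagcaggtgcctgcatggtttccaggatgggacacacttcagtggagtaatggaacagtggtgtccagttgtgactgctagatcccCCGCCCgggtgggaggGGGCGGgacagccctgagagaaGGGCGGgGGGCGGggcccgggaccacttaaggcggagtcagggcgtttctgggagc
Ptch1: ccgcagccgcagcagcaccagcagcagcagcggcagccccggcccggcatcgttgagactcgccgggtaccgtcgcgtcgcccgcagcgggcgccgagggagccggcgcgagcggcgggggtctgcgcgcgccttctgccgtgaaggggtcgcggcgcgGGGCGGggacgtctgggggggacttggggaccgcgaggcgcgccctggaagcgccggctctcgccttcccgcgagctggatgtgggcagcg
Smo: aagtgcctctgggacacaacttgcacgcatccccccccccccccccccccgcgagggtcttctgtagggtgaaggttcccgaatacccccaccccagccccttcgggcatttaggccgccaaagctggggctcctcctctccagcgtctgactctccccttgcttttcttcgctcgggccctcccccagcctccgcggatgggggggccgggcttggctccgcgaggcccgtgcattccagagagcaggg
The Dhh stretch held 4 GC boxes, the Ptch1 stretch held 1 and the Smo stretch held 0. A GC box on either strand was found in 6 of the 8 windows, against 35.7% of 32851 RefSeq windows of the same 300-base length. The Gli consensus GACCACCCA (or TGGGTGGTC) was found in 0 of the 8 windows, against 0.253% of all windows. Its core GACCACC (or GGTGGTC), which lies inside the consensus, was also found in 0 of 8, against 2.8%. These matches describe letters in a short window and are not measured binding sites.

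Library totals ran from 10736538 to 16807647 counts, and 16058 of 34745 genes passed the filter on low counts. Markers of neural stem cells were high in every library: Nes lay between 360.1 and 978 CPM (the count scaled to the library's total) and Sox2 between 180 and 417 CPM. The 9 listed stem cell markers summed to between 4984 and 6572 CPM. Transcripts of the liver protein albumin (Alb) were present at 16.3 and 21.5 CPM in P2 replicates 1 and 2, at 16.5 CPM in P10 PBS replicate 1 and at 17.2 CPM in P10 EV replicate 1, and reached at most 0.145 CPM in the other 8 libraries. Results that rest on these 4 libraries are given with and without them.

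Levels of different genes are compared here as FPKM, which divides the count by gene length and library total. The length implied by the deposited values was 2961 bases for Gas1, 6281 for Smo, 16688 for Ptch1 and 12364 for Cdon. The order depends on these lengths: Ptch1 had more counts than Smo (38707 against 22057) but a lower FPKM. By the mean of 12 libraries the order was Gas1 (42.2 FPKM), Smo (22.03 FPKM), Ptch1 (14.7 FPKM), Cdon (10.1 FPKM), Dhh (3.71 FPKM), Gli3 (3.11 FPKM), Boc (3.11 FPKM), Gli2 (2.41 FPKM), Hhip (0.631 FPKM) and Gli1 (0.0354 FPKM). Gas1 lay above 94.8% of the tested genes, Smo above 88.7%, Ptch1 above 81.8% and Cdon above 74.2%. Boc and Gli3 both lay above 44.9% of them, Gli2 above 38.8% and Hhip above 14.2%. Some neighbours in this order overlapped: Gli3 (1.70 to 4.68 FPKM), Boc (1.83 to 3.81 FPKM) and Gli2 (1.59 to 3.76 FPKM) covered much the same range, as did Cdon (3.79 to 22.1 FPKM) and Ptch1 (11.6 to 20.6 FPKM). Smo (19.1 to 24.6 FPKM) met only the upper end of Ptch1 and Cdon. Dhh (0.617 to 16.9 FPKM) overlapped every gene from Ptch1 down to Hhip (0.223 to 1.49 FPKM). Gas1 stood apart, since its lowest library (31.7 FPKM) lay above the highest library of Smo.

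**Figure D1:**
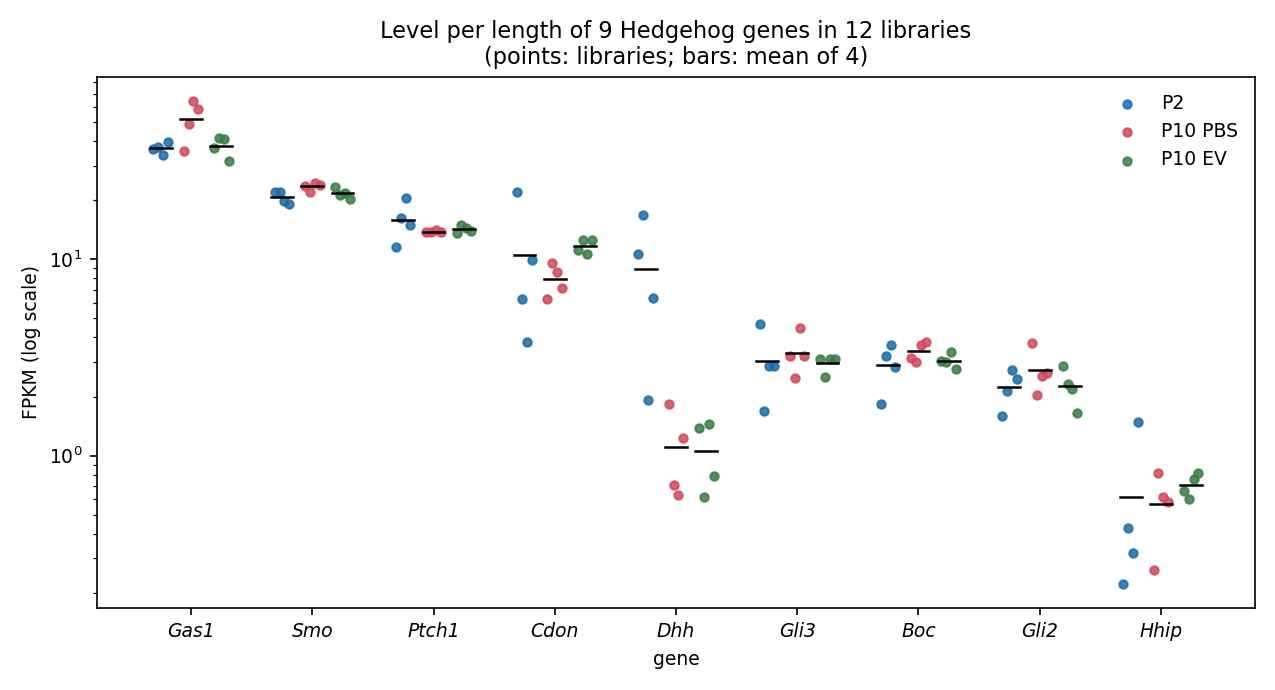
FPKM (log axis) of 9 Hedgehog genes in each of the 12 libraries, with 1 point per library, the groups P2, P10 PBS and P10 EV in separate colours and a bar at the mean of each group. Dhh shows the widest separation, from a mean of 8.96 FPKM in P2 to 1.102 FPKM in P10 PBS and 1.06 FPKM in P10 EV; Gli1, at 0 counts in 6 libraries, is not drawn.

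Between P2 and P10 PBS, Dhh fell and no other Hedgehog gene passed the test. This was 1 of the 9 genes that passed the filter, lower at passage 10, against 0.928% of all tested genes called in either direction and 0.548% called lower by edgeR's quasi-likelihood test with Benjamini-Hochberg adjustment. The median log2 fold change of the 9 genes was 0.15, against -0.008 over all tested genes. Between P2 and P10 EV the same gene fell, again 1 of 9, against 0.585% of tested genes called and 0.411% called lower. The median of the 9 was -0.02, against -0.011 over all tested genes. Between P10 EV and P10 PBS the test called 0 of 9, against 0% of all tested genes: edgeR called 0 genes in all, 1163 had an unadjusted p under 0.05, and the Wald test of DESeq2 called 67, none of them a Hedgehog gene. The median of the 9 was -0.17, against 0.009 over all tested genes. The 3 comparisons share libraries pairwise, so their values are set side by side and not counted as independent. The members were chosen with earlier results of these data known, so the shares beside 1 of 9 are a description and not a test of the list.

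**Figure D2:**
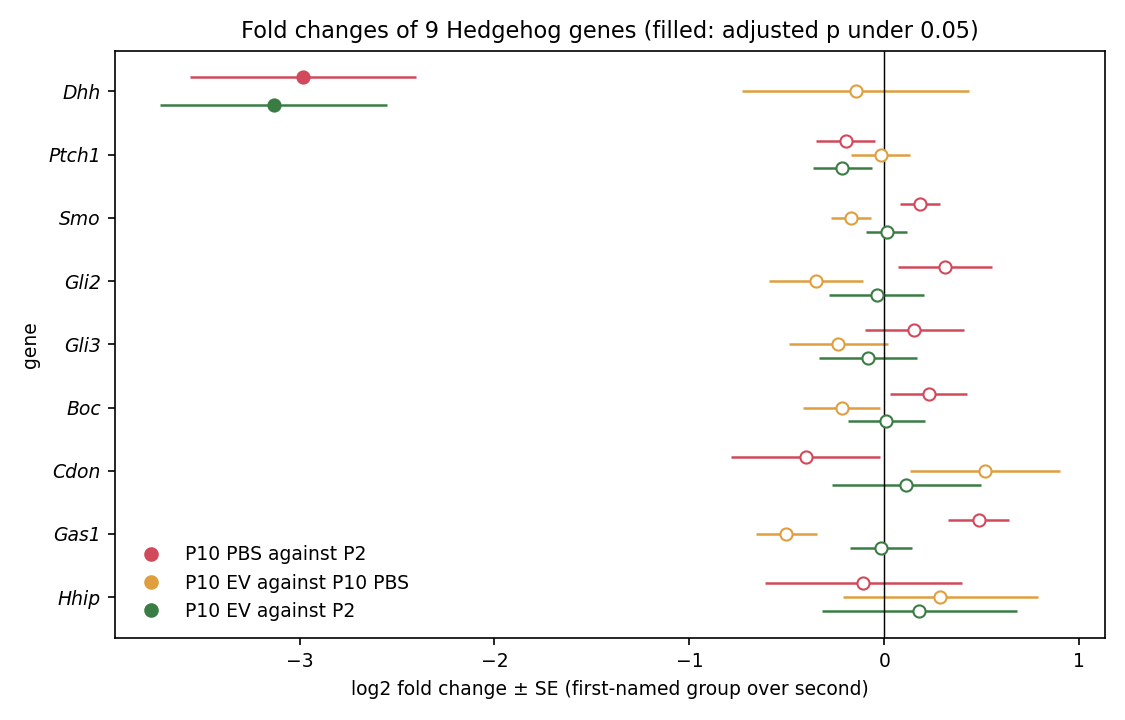
Log2 fold change with its standard error for the 9 tested Hedgehog genes in the 3 comparisons, from the fit of all 12 libraries, with filled points at an adjusted p under 0.05. Dhh lies at -2.98 and -3.13 in both comparisons with P2 and at -0.15 between P10 EV and P10 PBS; the other genes lie between -0.50 and 0.52.

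Dhh, the ligand, lies at chr15:98893031-98898540 in the deposited table and had 1437 counts over the 12 libraries. Its level was 25.1, 41.4, 4.74 and 14.8 CPM in P2 replicates 1 to 4 and 4.63, 1.65, 1.497 and 2.91 CPM in P10 PBS replicates 1 to 4. In P10 EV replicates 1 to 4 it was 3.25, 1.43, 3.29 and 1.80 CPM. All 4 P2 libraries lay above all 8 libraries of passage 10, but P2 replicate 3 only just, at 4.74 CPM against 4.63 CPM in P10 PBS replicate 1. Dhh was the only Hedgehog gene whose groups separated in this way, against 3.12% of all tested genes whose P10 PBS libraries all lay below P2 and 4.36% whose P10 EV libraries did. Libraries of P10 PBS and P10 EV overlapped.

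The mean of Dhh fell from 21.5 ± 15.7 CPM (SD, n = 4) in P2 to 2.67 ± 1.45 CPM in P10 PBS and 2.44 ± 0.968 CPM in P10 EV. The fold change was -2.98 ± 0.58 (log2, SE) for P10 PBS, a 7.92-fold lower level with an adjusted p of 0.0302 in edgeR's quasi-likelihood test. For P10 EV it was -3.13 ± 0.58, an 8.77-fold lower level with an adjusted p of 0.0350. Dhh was lower in 4 of 4 replicate numbers in both comparisons. The size of the fall varied: it was -4.65 (log2, P10 PBS over P2) in number 2 and -1.66 in number 3. For P10 EV over P2 the corresponding log2 differences were -4.86 and -0.53. P10 EV and P10 PBS differed by -0.15 ± 0.58, with an adjusted p of 0.974.

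The calls for Dhh lay close to the threshold. In P10 PBS against P2 the call was kept in 11 of 19 alternatives and in P10 EV against P2 in 10 of 19, while the direction was the same in all 19 for both. A culture code in the library names links equal replicate numbers across the groups, and with the number as a block the fall was -2.88 (adjusted p = 0.0577, edgeR) for P10 PBS and -2.91 (adjusted p = 0.0810) for P10 EV, past the threshold in neither. With only the 8 libraries of each comparison, the adjusted p of edgeR became 0.0929 for P10 PBS and 0.0754 for P10 EV. Dhh was highest in P2 replicates 1 and 2, which also held Alb. Without the 4 libraries with Alb, the fall was smaller, at -2.25 ± 0.53 (adjusted p = 0.0256) for P10 PBS and -2.16 ± 0.53 (adjusted p = 0.0213) for P10 EV. Of P2, that fit kept only replicates 3 and 4, with Dhh at 4.74 and 14.8 CPM. It also called far more genes in all, 2320 for P10 PBS against P2 and 3335 for P10 EV against P2. The adjusted p-values of the 2 fits are therefore not on a like footing. In bulk RNA, fewer Dhh-expressing cells and less Dhh RNA per cell cannot be told apart.

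Cell types known to make Dhh were looked for by their markers. Of the 7 listed Schwann cell genes, Foxd3, a transcription factor of the early lineage, had 1 count over the 12 libraries, while Cdh19 had 2823, Pmp22 had 1761, Egr2 had 1622 and Prx had 1071. The 7 genes summed to 37.9 to 53.3 CPM in P2, 45.7 to 57.3 CPM in P10 PBS and 33.4 to 51.5 CPM in P10 EV, ranges that overlap. Of the 7 endothelial genes, the junction gene Cdh5 had 2 counts and Cldn5 had 10 counts over 12 libraries. Their sums were 6.60 to 40.5 CPM in P2, 13.7 to 50.5 CPM in P10 PBS and 9.93 to 13.1 CPM in P10 EV, mostly from Flt1. In P2 replicates 1 to 4 the endothelial sums were 6.99, 40.48, 6.60 and 12.95 CPM. The Schwann cell sums were 42.15, 53.33, 37.9 and 44.11 CPM. Both were highest in replicate 2 and lowest in replicate 3, as was Dhh. Replicates 1 and 4 ranked the other way round from Dhh. The part of either list in the fall of Dhh was not tested. None of the tested genes in either list was called in any comparison. Among all tested genes 0.928% were called in P10 PBS against P2, 0% in P10 EV against P10 PBS and 0.585% in P10 EV against P2.

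Some markers of the oligodendrocyte lineage were lower at passage 10 too. Of the 12 listed genes 9 were tested, and their median log2 fold change was -1.18 for P10 PBS against P2 (7 of 9 below 0) and -1.06 for P10 EV against P2 (6 of 9 below 0). Sox10, a transcription factor of this lineage, was called lower in P10 PBS than in P2: its mean was 71.8 CPM in P2, 3.41 CPM in P10 PBS and 9.88 CPM in P10 EV, with overlapping libraries. In P2 replicates 1 to 4 Sox10 had 5.28, 107.7, 119.3 and 55.1 CPM, where Dhh had 25.1, 41.4, 4.74 and 14.8 CPM. Replicate 3 was thus the highest P2 library for Sox10 and the lowest for Dhh. Cnp, a myelin gene, was called lower in P10 EV than in P2. Over all tested genes 0.548% were called lower in P10 PBS than in P2 and 0.411% in P10 EV than in P2. The sums of the list overlapped at 2331 to 3701 CPM in P2, 2382 to 3131 CPM in P10 PBS and 2624 to 2975 CPM in P10 EV. To these sums Olig1 added 1079 to 1677 CPM, Olig2 652 to 1084 CPM and Cspg4 178 to 587 CPM. The part of these lineage markers in the fall of Dhh was not tested.

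Reads at Dhh are partly shared with other annotations. In GENCODE M21, 546 bases of Dhh exon are also exon of Rhebl1 on the same strand, and 1107 bases are exon of Gm49442 on the opposite strand. Whether counting used strand is not given in the sources used here. Rhebl1 stayed between 0.994 and 3.13 CPM, and its log2 fold change was -0.44 ± 0.39 (adjusted p = 0.637, edgeR) in P10 PBS against P2 and 0.03 ± 0.38 (adjusted p = 0.975) in P10 EV against P2.

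The other ligands were almost absent. Shh had 41 counts in all and Ihh, Indian hedgehog, had 25, so neither passed the filter on low counts. Shh had 5, 5, 0 and 0 counts in P2 replicates 1 to 4, between 4 and 11 counts in every P10 PBS library and between 0 and 2 counts in every P10 EV library. A count of 0 allows up to 3 counts, which is 0.179 to 0.279 CPM in these libraries, and this limit covers counting error only. The P10 PBS libraries of Shh read 0.363 to 0.749 CPM, close to this limit, and at so few counts no comparison was made. Ihh had 8, 7 and 10 counts in the 3 groups.

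Of the 8 genes listed for ligands and their release, 6 passed the filter and 0 were called in any comparison. The shares called over all tested genes were 0.928% for P10 PBS against P2, 0% for P10 EV against P10 PBS and 0.585% for P10 EV against P2. All 6 lay below 0 in both comparisons with P2, with a median log2 fold change of -0.48 (P10 PBS) and -0.56 (P10 EV), against -0.008 and -0.011 over all tested genes. For P10 EV over P10 PBS the median was -0.13. Disp1, the transporter that releases lipid-modified ligand, had 24.3 ± 5.66 CPM in P2, 21.6 ± 5.08 CPM in P10 PBS and 19.1 ± 1.63 CPM in P10 EV (SD, n = 4 each). Disp2, its relative, had 29.8 ± 9.35 CPM, 20.2 ± 12.6 CPM and 19.0 ± 1.87 CPM in the same order.

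Ptch1, the receptor, had 194, 282, 356 and 246 CPM in P2 replicates 1 to 4. It had 244, 226, 239 and 231 CPM in P10 PBS and 226, 246, 233 and 224 CPM in P10 EV. The P2 libraries spread widely around the narrow band of passage 10: their SD was 68.3 CPM, against 7.85 CPM in P10 PBS and 9.76 CPM in P10 EV. The log2 fold change was -0.20 ± 0.15 (adjusted p = 0.589, edgeR) for P10 PBS against P2 and -0.21 ± 0.15 (adjusted p = 0.449) for P10 EV against P2. P10 EV over P10 PBS was -0.02 ± 0.15 (adjusted p = 0.989). All 3 groups overlapped.

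Smo, the transducer that Ptch1 holds in check (chr6:29735503-29761365), varied least, by 1.34-fold between its highest and lowest library. It had 139, 143, 129 and 118 CPM in P2 replicates 1 to 4, 158, 136, 156 and 151 CPM in P10 PBS, and 147, 132, 132 and 123 CPM in P10 EV. The groups overlapped in every comparison. Its log2 fold change was 0.18 ± 0.10 (adjusted p = 0.455, edgeR) for P10 PBS against P2, -0.17 ± 0.10 (adjusted p = 0.777) for P10 EV against P10 PBS and 0.01 ± 0.10 (adjusted p = 0.963) for P10 EV against P2. P10 EV was lower than P10 PBS in 4 of 4 replicate numbers. The ratio of Ptch1 to Smo, both in FPKM, lay between 0.524 and 1.04 in P2, between 0.575 and 0.624 in P10 PBS and between 0.580 and 0.702 in P10 EV.

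**Figure D3:**
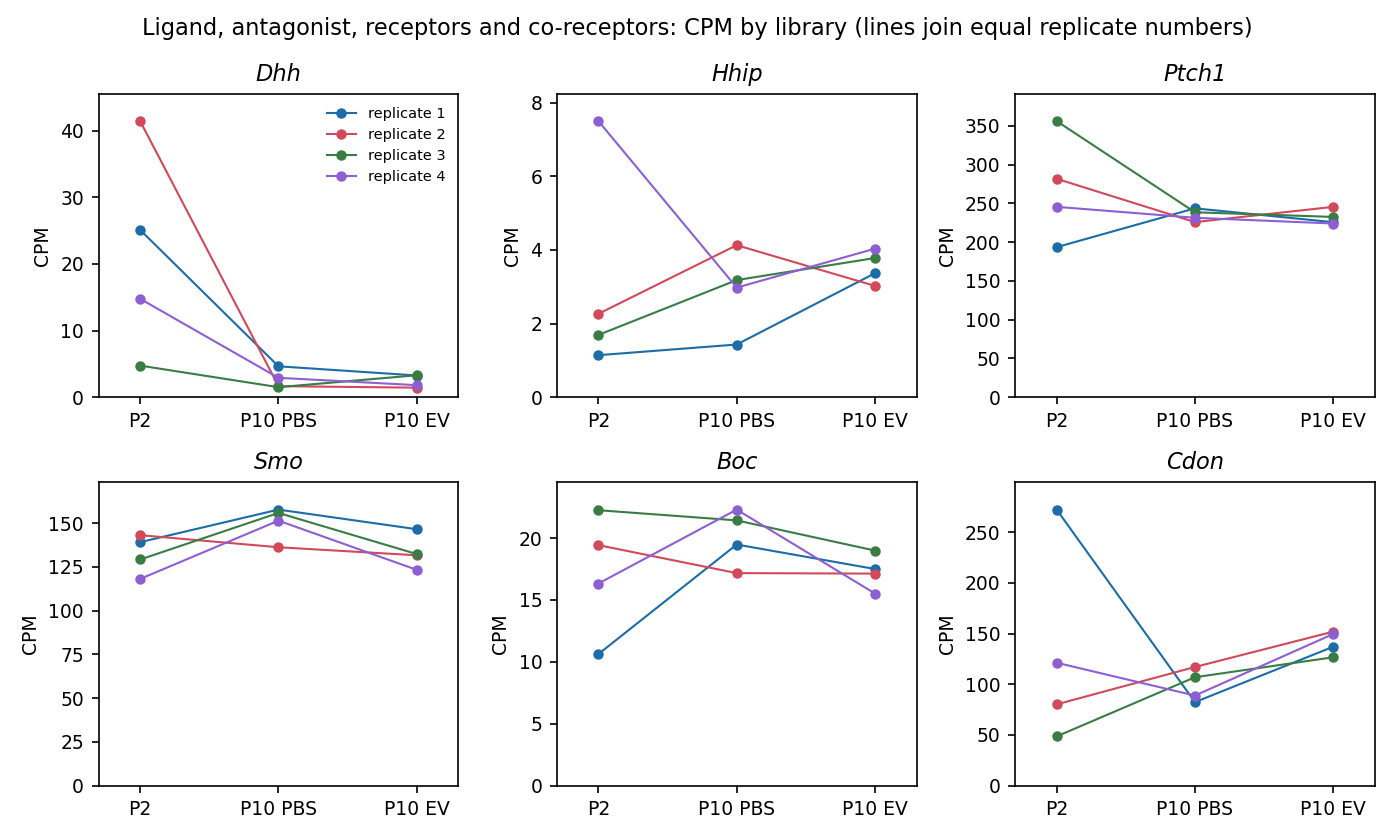
CPM of Dhh, Hhip, Ptch1, Smo, Boc and Cdon in every library (linear axis from 0), with lines joining equal replicate numbers across P2, P10 PBS and P10 EV. Dhh is higher in P2 for all 4 numbers; Cdon and Ptch1 spread widely in P2 and narrowly at passage 10.

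Among the co-receptors, which bind ligand together with Ptch1, Cdon (chr9:35421128-35507652) varied most. It had 272, 80.2, 48.6 and 121 CPM in P2 replicates 1 to 4, 82.4, 117, 107 and 88.9 CPM in P10 PBS, and 137, 152, 127 and 149.7 CPM in P10 EV. Within P2 it differed 5.601-fold between replicates 1 and 3, and both groups of passage 10 lay inside that range. All 4 P10 EV libraries lay above all 4 P10 PBS libraries. Of the 9 tested Hedgehog genes Cdon alone separated these groups in either direction, against 7.58% of all tested genes. The P10 EV libraries all lay higher in 3.74% of all tested genes. The log2 fold change was 0.52 ± 0.38, with an unadjusted p of 0.202 and an adjusted p of 0.825 in edgeR, and Cdon was higher in 4 of 4 replicate numbers. This fit shares its estimate of spread with P2, where the SD of log2 CPM was 1.05, against 0.234 in P10 PBS and 0.122 in P10 EV. With only the 8 libraries of this comparison the change was 0.52 ± 0.13 (adjusted p = 0.184, edgeR), still not called.

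For Cdon against P2, the direction depended on single P2 libraries. With all libraries the log2 fold change was -0.40 ± 0.38 (adjusted p = 0.668, edgeR) for P10 PBS and 0.11 ± 0.38 (adjusted p = 0.895) for P10 EV. For P10 EV it turned to -0.076 without P2 replicate 2 and to -0.17 without P2 replicate 3. Without P2 replicate 1 it turned to 0.25 for P10 PBS. For P10 EV it became 0.77, with an adjusted p of 0.0483, past the threshold. That fit called 2821 of 16148 tested genes in P10 EV against P2, where the fit of all libraries called 94 of 16058. Without the 4 libraries with Alb, which include P2 replicate 1, Cdon was 0.30 for P10 PBS and 0.75 for P10 EV. The adjusted p for P10 EV was then 0.130 (edgeR), not past the threshold, in a fit that called 3335 genes in that comparison.

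Boc, the relative of Cdon (chr16:44485045-44558897), had 10.6, 19.4, 22.3 and 16.3 CPM in P2 replicates 1 to 4, 19.5, 17.2, 21.4 and 22.3 CPM in P10 PBS, and 17.5, 17.1, 19.0 and 15.5 CPM in P10 EV. The groups overlapped. P10 EV over P10 PBS was -0.22 ± 0.20 (log2, SE; adjusted p = 0.853, edgeR), lower in 4 of 4 replicate numbers. P10 PBS over P2 was 0.23 ± 0.20 (adjusted p = 0.632) and P10 EV over P2 was 0.01 ± 0.20 (adjusted p = 0.983). In P2 the replicates ranked 3, 2, 4, 1 from high to low for both Boc and Ptch1, and in the opposite order for Cdon. The ratio of Cdon to Boc in FPKM was 12.1 in P2 replicate 1 and 1.03 in P2 replicate 3, and lay between 1.88 and 4.55 in the 8 libraries of passage 10.

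Sums of other gene lists also varied within P2. The 15 listed S phase genes summed to 2691, 1660, 554 and 762 CPM in P2 replicates 1 to 4, against 2117 to 2730 CPM at passage 10. The 8 astrocyte genes summed to 981, 1664, 4247 and 2425 CPM, against 862 to 1934 CPM at passage 10. P2 replicate 1 was thus highest in S phase genes and lowest in astrocyte genes, and replicate 3 the reverse, as for Cdon and Boc, while replicates 2 and 4 ranked the other way round from those genes. None of the 15 S phase genes was called in any comparison, and of the 7 tested astrocyte genes 1, Slc1a2, was called, lower in P10 EV than in P2. Over all tested genes 0.411% were called lower in P10 EV than in P2. The part of either list in the values of Cdon, Boc and Ptch1 was not tested.

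Gas1, a co-receptor held to the membrane by a lipid anchor (chr13:60174405-60177365), had the highest FPKM of the Hedgehog genes. It had 108, 115, 105 and 116 CPM in P2 replicates 1 to 4, 112, 142, 192 and 174 CPM in P10 PBS, and 109, 121, 117 and 90.5 CPM in P10 EV. The P2 libraries were close together, P10 PBS ranged higher in replicates 2 to 4, and P10 EV lay near P2. Libraries of P10 PBS overlapped with both other groups through its replicate 1.

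The log2 fold change of Gas1 for P10 PBS against P2 was 0.49 ± 0.16, higher in 4 of 4 replicate numbers. Its unadjusted p was 0.00881 and its adjusted p 0.197 in edgeR, so it did not pass. For P10 EV against P10 PBS it was -0.50 ± 0.16, lower in 4 of 4 numbers, with an unadjusted p of 0.00719 and an adjusted p of 0.550. P10 EV against P2 was -0.02 ± 0.16 (adjusted p = 0.966). The first 2 of these values rest on the same P10 PBS libraries. Without the 4 libraries with Alb, which include P10 PBS replicate 1, Gas1 for P10 PBS against P2 was 0.62. Its adjusted p in that fit was 0.0433, past the threshold. For P10 EV against P10 PBS it was -0.62 with an adjusted p of 0.372. Of P2, that fit kept only replicates 3 and 4. In P10 PBS against P2 it called 2320 of 16215 tested genes, against 149 of 16058 with all libraries.

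**Figure D4:**
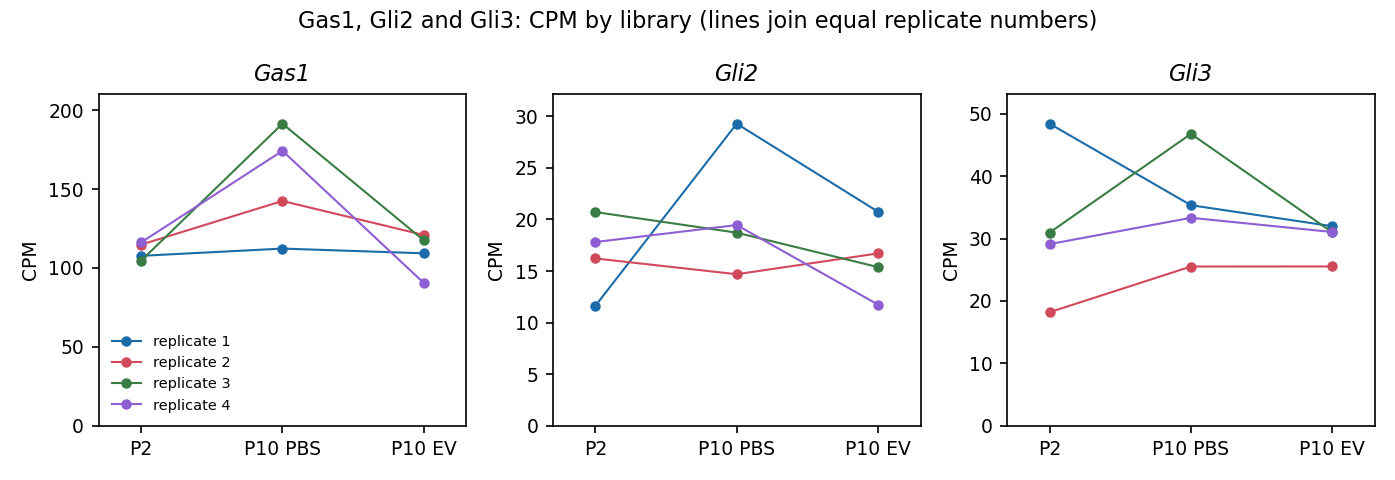
CPM of Gas1, Gli2 and Gli3 in every library (linear axis from 0), with lines joining equal replicate numbers across the 3 groups. Gas1 is highest in P10 PBS replicates 3 and 4 (192 and 174 CPM) and lies between 90.5 and 121 CPM in P2 and P10 EV; Gli2 and Gli3 overlap between all groups.

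Gli1, the activator whose transcription is the usual readout of the pathway (chr10:127329889-127341589), was close to absent. It had 20 counts over the 12 libraries, 0 in 6 libraries and 6 at most. The counts were 0, 3, 0 and 0 in P2 replicates 1 to 4, 1, 0, 0 and 5 in P10 PBS, and 0, 6, 4 and 1 in P10 EV. Gli1 did not pass the filter, and no difference was detectable at this depth, where 3 counts are 0.179 to 0.279 CPM.

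Gli2, the main activator of the family (chr1:118834132-119053619), had 11.6, 16.2, 20.7 and 17.8 CPM in P2 replicates 1 to 4, 29.3, 14.7, 18.7 and 19.5 CPM in P10 PBS, and 20.8, 16.7, 15.4 and 11.7 CPM in P10 EV. The groups overlapped, and P10 PBS replicate 1 was the highest library. On the log2 scale the change of Gli2 was 0.31 ± 0.24 (adjusted p = 0.593, edgeR) for P10 PBS against P2, -0.35 ± 0.24 (adjusted p = 0.805) for P10 EV against P10 PBS and -0.04 ± 0.24 (adjusted p = 0.949) for P10 EV against P2.

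Gli3, the family's main repressor after proteolytic cutting (chr13:15463235-15730026), had 48.4, 18.2, 31.0 and 29.1 CPM in P2 replicates 1 to 4, 35.4, 25.5, 46.8 and 33.3 CPM in P10 PBS, and 32.0, 25.5, 31.0 and 31.1 CPM in P10 EV. Its groups overlapped as well. For Gli3 the log2 fold change was 0.15 ± 0.25 (adjusted p = 0.828, edgeR) for P10 PBS against P2, -0.24 ± 0.25 (adjusted p = 0.883) for P10 EV against P10 PBS and -0.08 ± 0.25 (adjusted p = 0.881) for P10 EV against P2. The ratio of Gli3 to Gli2 in FPKM was 2.95 in P2 replicate 1, between 0.793 and 1.16 in the other P2 libraries, and between 0.854 and 1.87 at passage 10. RNA levels do not tell the full-length Gli proteins from their cut forms.

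Hhip, the membrane protein that binds ligands and keeps them from Ptch1 (chr8:79966115-80058006), was low. It had 1.14, 2.27, 1.69 and 7.503 CPM in P2 replicates 1 to 4, 1.43, 4.13, 3.18 and 2.98 CPM in P10 PBS, and 3.37, 3.02, 3.78 and 4.04 CPM in P10 EV. P2 replicate 4 was the highest library of all and the other 3 P2 libraries were among the 4 lowest, so the groups overlapped. Changes of Hhip on the log2 scale were -0.11 ± 0.51 (adjusted p = 0.950, edgeR) for P10 PBS against P2, 0.29 ± 0.50 (adjusted p = 0.928) for P10 EV against P10 PBS and 0.18 ± 0.50 (adjusted p = 0.867) for P10 EV against P2. Without P2 replicate 4 the first of these turned to 0.78 and stayed below the threshold.

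The machinery around the receptors was expressed and did not pass the test. All 23 genes listed for the membrane and cilium, where Smo acts, passed the filter, and 0 were called in any comparison. Over all tested genes 0.928% were called in P10 PBS against P2, 0% in P10 EV against P10 PBS and 0.585% in P10 EV against P2. With so few genes called anywhere, 0 of 23 does not show that these genes were unchanged. Their median log2 fold change was 0.03 for P10 PBS against P2, -0.02 for P10 EV against P10 PBS and 0.09 for P10 EV against P2. Among the highest by FPKM was Mgrn1, a ubiquitin ligase that helps remove Smo from the cell surface. Mgrn1 had 40.3 ± 5.31 FPKM in P2, 40.8 ± 6.71 FPKM in P10 PBS and 36.9 ± 4.05 FPKM in P10 EV (SD, n = 4 each).

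The 16 genes listed for Gli processing also passed the filter, and 0 were called, against the same shares of all tested genes. The median log2 fold changes of the 16 were -0.03 for P10 PBS against P2, 0.02 for P10 EV against P10 PBS and 0.02 for P10 EV against P2. Prkar1a and Prkaca, a regulatory and a catalytic subunit of protein kinase A, which marks Gli proteins for cutting, were the highest. Prkar1a had 109 ± 2.67 FPKM in P2, 112 ± 4.16 FPKM in P10 PBS and 108 ± 2.89 FPKM in P10 EV. Prkaca had 72.1 ± 12.2 FPKM, 82.3 ± 5.81 FPKM and 77.3 ± 6.87 FPKM.

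Of 18 listed Gli targets, 13 passed the filter, and 1 of these, Cdk6, was called, lower in P10 PBS than in P2. Over all tested genes 0.928% were called in this comparison and 0.548% were called lower. Cdk6, a kinase that acts with D-type cyclins in the G1 phase, had 224, 57.0, 191 and 189 CPM in P2 replicates 1 to 4, 26.0, 47.7, 14.9 and 16.9 CPM in P10 PBS, and 46.2, 44.3, 53.7 and 64.6 CPM in P10 EV. All P2 libraries lay above all P10 PBS libraries, while P2 replicate 2 lay inside the P10 EV range. The log2 fold change was -2.65 ± 0.43 for P10 PBS against P2, 6.26-fold lower, with an adjusted p of 0.0153 in edgeR. For P10 EV against P2 it was -1.66 ± 0.41 (adjusted p = 0.0824), and for P10 EV against P10 PBS 0.99 ± 0.41 (adjusted p = 0.657). The call was kept in 16 of 19 alternatives and lost with the 8 libraries alone (adjusted p = 0.0655), without P10 PBS replicate 1 (adjusted p = 0.0514) and without P10 PBS replicate 3 (adjusted p = 0.0538).

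The other 12 tested targets did not pass in any comparison. The median log2 fold changes of the 13 were -0.00 for P10 PBS against P2, 0.06 for P10 EV against P10 PBS and -0.02 for P10 EV against P2. Ccnd1, cyclin D1, had 353 ± 212 FPKM in P2, 537 ± 193 FPKM in P10 PBS and 440 ± 53.2 FPKM in P10 EV. Olig2, a transcription factor of ventral neural tube and oligodendrocyte lineage, had 331 ± 69.2 FPKM, 395 ± 31.3 FPKM and 422 ± 22.5 FPKM. The 5 targets that did not pass the filter were Nkx2-1 with 71 counts over the 12 libraries, Foxa2 with 8, Foxf1 with 7, Nkx6-1 with 3 and Nkx2-9 with 2. Other transcription factors of the same list were read, with 7565 counts for Nkx2-2 (28.5 to 80.2 CPM) and 313 counts for Nkx6-2 (0.551 to 3.98 CPM), both named after their values were seen.

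The 5 tested genes most like Dhh across the 12 libraries, by Pearson's r of log2 CPM, were Fam189b (r = 0.928), Col18a1 (r = 0.903), Hspg2 (r = 0.887), Efnb1 (r = 0.877) and Fam179a (r = 0.874). They were ranked among the 16058 tested genes after the Hedgehog genes and genes named only by a model, clone or accession number were left out. The points share groups and replicate codes, and r is given as a description. Mean levels in P2, P10 PBS and P10 EV were 25.9, 9.14 and 5.98 CPM for Col18a1, which encodes a collagen, and 213.5, 137.5 and 129.9 CPM for Hspg2, which encodes perlecan. None of the 5 was called in any comparison. The same ranking was not made for Gli1, which did not pass the filter.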

How the data were processed

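Polyadenylated RNA was read from 12 libraries. The authors deposited counts per gene and FPKM (counts scaled by gene length and library total). HISAT2 2.0.4 and StringTie 1.3.0 are named in the submitters' processing notes; the sources used here give neither the counting program nor the build. Coordinates are printed as deposited, and 80.84% of 34344 gene identifiers have the same locus in GENCODE M21, an annotation of GRCm38.

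Genes were kept by filterByExpr (minimum count 10). CPM here is the count scaled by the TMM-adjusted library total. edgeR 4.0.16 fitted 1 mean per group to all 12 libraries (9 residual degrees of freedom), and p-values were adjusted over all 16058 tested genes, with a call at an adjusted p under 0.05. Fold changes are log2, first-named group over second. The fits were tested on simulated data.

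The members, gene lists and tests were chosen with earlier results of these data known. In each pathway list the called genes (up to 3) are named, or else the highest by FPKM; Shh and Ihh are always named, and Rhebl1, Sox10, Cnp, Slc1a2, Alb and the cell markers beside a result. Some genes that this rule takes are left out of the text.

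Deviations from the group means correlated between P10 EV and P10 PBS libraries of equal replicate number at 0.37, 0.148, 0.138 and 0.208, all above 0.1. Library names share a culture code in all 3 groups. The main fit did not use this pairing, and its values are printed unless an alternative is named. The replicate number entered as a block in an alternative fit only. For P10 EV against P10 PBS that fit called 0 genes, as without the block.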

Additional observations from a re-analysis of the deposited data

Results flagged for a closer look

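Dixon's test asks whether the highest or lowest of 4 libraries stands far from the rest of its group. It was run on the CPM of the 9 tested Hedgehog genes in the 3 groups, 27 sets of 4 values, and marked 1 of them, where chance marks about 1 in 20. The library was P10 EV replicate 2 for Gli3, at 25.53 CPM against 31.0 to 32.0 CPM in the other 3 P10 EV libraries; its gap was 0.848 of the group's range, above the critical value for 4 samples.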

How the results depend on the processing

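The 28 fold changes of the 9 tested members and Cdk6 were recomputed under 19 alternatives, giving 532 values: 475 kept direction and side of the threshold, 20 lost the call, 2 gained it and 35 changed sign. The cause of these changes was not tested. None of the 35 belonged to Dhh against P2, whose log2 fold change ranged from -3.38 to -1.998 (P10 PBS, adjusted p up to 0.108) and from -3.47 to -2.01 (P10 EV, adjusted p up to 0.129). Depth limits Gli1, Shh and Ihh most.

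In P10 PBS against P2, 149 genes were called in all; DESeq2 called 592, the 8 libraries alone 38, and the fit without the 4 libraries with Alb 2320. Leaving out 1 library gave 41 to 1206, the highest without P2 replicate 1. In P10 EV against P10 PBS, 0 were called; DESeq2 called 67, the 8 libraries alone 2, and leaving out 1 library gave 0 to 1. In P10 EV against P2, 94 were called; DESeq2 called 924, the 8 libraries alone 30, the fit without the Alb libraries 3335, and leaving out 1 library gave 8 to 2821, the highest without P2 replicate 1.

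Of the members, 1 was called in P10 PBS against P2. The 8 libraries alone and the replicate block called 0, the fit without the Alb libraries 2 (Dhh and Gas1), and leaving out 1 library 0 to 1. The call of Dhh was lost without P2 replicate 2 (adjusted p = 0.0544), P2 replicate 4 (0.0580) and P10 PBS replicates 1 (0.0520), 2 (0.0823), 3 (0.108) and 4 (0.0838). In P10 EV against P2, 1 was called. Limma-trend on log2(FPKM + 1) (adjusted p = 0.0542), the 8 libraries alone and the replicate block called 0, and leaving out 1 library gave 0 to 2. Here the call of Dhh was lost without any P10 EV replicate (adjusted p = 0.112, 0.121, 0.0902 and 0.129 without 1 to 4), without P2 replicate 4 (0.0733) and without P10 PBS replicate 4 (0.0561).

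The replicate block gave Dhh -2.88 (adjusted p = 0.0577) for P10 PBS against P2 and -2.91 (adjusted p = 0.0810) for P10 EV against P2, and 167, 0 and 67 genes called in the 3 comparisons as ordered above. Libraries of P2 carry the same culture codes as those of passage 10, but the labels do not say what a code stands for, and not every pair correlated above 0.1: deviations correlated at -0.0154, -0.0845, -0.00614 and 0.211 with P10 PBS (1 of 4 matched its own number best) and at 0.0874, 0.125, 0.187 and 0.166 with P10 EV (2 of 4).

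Signs changed for fold changes of uncalled members. In P10 PBS against P2, Hhip became 0.0085 with limma-trend and 0.098 with the replicate block, and without the Alb libraries Gli2 became -0.13 and Cdon 0.30. In P10 EV against P10 PBS, Ptch1 became 0.037 with limma-trend, and without the Alb libraries Dhh became 0.088 and Ptch1 0.018. In P10 EV against P2, Gli2 became 0.012, Gli3 0.022 and Gas1 0.032 with limma-trend, and without the Alb libraries Boc became -0.16 and Hhip -0.34.

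Leaving out 1 library at a time, values ranged for P10 PBS against P2 from -0.037 to 0.44 (Gli3), -0.68 to 0.25 (Cdon) and -0.38 to 0.78 (Hhip). For P10 EV against P10 PBS they ranged from -0.34 to 0.25 (Dhh) and -0.040 to 0.00093 (Ptch1). For P10 EV against P2 they ranged from -0.046 to 0.052 (Smo), -0.17 to 0.095 (Gli2), -0.29 to 0.21 (Gli3), -0.15 to 0.15 (Boc), -0.17 to 0.77 (Cdon), -0.057 to 0.070 (Gas1) and -0.087 to 1.06 (Hhip).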
